A study of Mus musculus with 17 samples.

Results

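Genes that signal, bridge or receive the clearance of dying and living cells were examined in cells from mouse lung tumors by RNA sequencing. They comprised Cd47, Sirpa, Calr, Mertk, Axl, Gas6, Mfge8, Cd24a, Stab1 and Timd4, and were taken by gene name from the tables of tumor cells, TRMs and MDMs, 10 of the 17555 genes in those tables. The genotype of KL mice included Lkb1 fl/fl, and KLG4 mice carried in addition Gpx4 m/m, an allele in which tamoxifen-activated Dre deletes exons 5 to 7 of Gpx4 once Cre has switched Dre on. Mice of both genotypes received Ad-Cre intranasally at 8 to 10 weeks of age and tamoxifen afterwards, and the cells were sorted from the lungs 10 weeks after Ad-Cre. The adenovirus is not restricted to one cell type, KL mice carry neither the Gpx4 allele nor Dre, and the inserted CAG promoter lies in the Gpx4 locus of KLG4 mice. TRMs and MDMs, macrophage populations that the labels do not spell out, and tumor cells sorted as CD45-CD31-EpCAM+ were profiled in 2 KL and 2 KLG4 libraries each. The study gives mice as the replicates of tumor cells, and the labels do not say whether each library came from a separate animal, so the p-values may measure only the spread between these libraries.

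Clearance of a cell depends on signals it shows, on proteins that bridge it to a phagocyte, and on receptors of the phagocyte. Calreticulin and phosphatidylserine at the surface act as "eat-me" signals, whereas CD47 and CD24 act as "don't-eat-me" signals through SIRPα and Siglec receptors of the phagocyte. Gas6 and Mfge8 attach phosphatidylserine to the receptor kinases Axl and MerTK and to integrins, respectively, and Tim-4 and stabilin-1 bind phosphatidylserine directly. Macrophages of the airspace are known for high levels of Axl and MerTK.

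In tumor cells the receptor and bridging genes Axl, Mertk, Timd4, Sirpa and Gas6 were significantly higher in KLG4 than in KL, by 1.94 to 3.66 on the log2 scale, whereas the "don't-eat-me" genes Cd47 and Cd24a and the "eat-me" gene Calr did not pass the test. The bridging gene Mfge8 did not pass there either, and its KLG4 values were the lower ones (log2 fold change -0.36). Mertk and Timd4 were under 1 RPKM in both KL libraries and entered the test through the KLG4 libraries alone, so a difference was built into their entry. Markers of leukocytes, neutrophils, macrophages and fibroblasts were higher in the same KLG4 libraries, and their part in these differences was not tested. In TRMs, Mfge8 was significantly higher in KLG4, at 30.6 ± 5.13 against 8.26 ± 0.287 RPKM (SD, n = 2), and Mertk just missed the threshold. In MDMs 0 genes passed. Gas6 was called higher in KLG4 tumor cells, while its lower values in KLG4 TRMs and MDMs did not pass and rest on entry to the test through KL alone.

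Levels were given as RPKM, read counts scaled by the exon length of each gene and by the counted reads of each library, so levels of different tables are comparable only on that scaling. The counted depth, recovered from the values, ranged from 9140000 to 36620000 reads per library, and in tumor cells it was higher in KL (36620000 and 30240000) than in KLG4 (17650000 and 15920000). Mitochondrial genes took 13.2 and 9.18% of the reads in KL TRMs and 1.43 and 2.40% in KLG4 TRMs. The log2 fold changes of TRMs are read against a median of 0.381 over all genes, which was 0.242 after scaling to reads outside mitochondrial genes and -0.010 under quantile scaling. Xist was at 18.3 and 20.2 RPKM in KLG4 TRMs and at 0.257 and 0.501 RPKM in KL TRMs, so the sex of the mice and the genotype cannot be told apart in TRMs. Every tumor cell library held Xist (4.17 to 6.18 RPKM) together with the Y-linked genes Ddx3y (8.61 to 17.1 RPKM) and Eif2s3y (7.27 to 9.26 RPKM). TRM libraries held either Xist or these Y-linked genes at such levels, not both. The tumor cell libraries may therefore pool male and female mice, which was not tested. In MDMs Xist was at 0.839 RPKM in KL replicate 2 and at 19.4 to 21.8 RPKM in the other libraries. Gpx4, counted over all its exons, was at 56.4 and 61.9 RPKM in KLG4 tumor cells and at 94.95 and 76.8 RPKM in KL tumor cells (log2 fold change -0.53, adjusted p 0.036 by limma). In TRMs it was at 89.8 and 88.2 RPKM in KL and 53.8 and 57.0 RPKM in KLG4 (-0.68, adjusted p 0.070), and in MDMs at 44.9 and 71.3 against 93.6 and 97.7 RPKM (0.76, adjusted p 0.679). The KLG4 pair of tumor cells was unusually close, with a chi-square of 3.28 per gene against 28.9 to 132 for the other pairs, so its spread may be smaller than that between animals.

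The labels were checked with cell type markers. Epcam was at 638 and 419.8 RPKM in KL and 214.5 and 211.3 RPKM in KLG4 tumor cells. The pan-leukocyte gene Ptprc, which encodes the CD45 that the gate excludes, was at 0.834 and 2.06 RPKM in KL and 26.7 and 27.4 RPKM in KLG4 tumor cells. In tumor cells all 5 leukocyte, all 6 fibroblast, 5 of 5 tested neutrophil and 5 of 5 tested macrophage markers were significantly higher in KLG4, and all 6 epithelial and all 6 AT2 markers (alveolar type II cells) were significantly lower. Of all tested genes 20.6% were called higher and 19.6% lower. Cd52, Adgre1, Cxcr2, Pdgfra and Lum were under 1 RPKM in both KL libraries and entered the test through KLG4 alone, so their calls are descriptions. The summed RPKM of the leukocyte list was 11.9 and 13.3 in KL against 113.5 and 116.3 in KLG4, that of the macrophage list 253.8 and 332.6 against 1114 and 1147, that of the fibroblast list 10.6 and 15.7 against 369.2 and 368.7, and that of the neutrophil list 178.6 and 271.3 against 2248 and 2150. Of the tumor cell values of these 4 lists, none was at 0 in a KL library. The macrophage gene Adgre1 was at 16.7 to 31.1 RPKM in TRMs and 10.2 to 21.9 RPKM in MDMs, and the alveolar macrophage list summed to 8263 to 12450 RPKM in TRMs and 1228 to 2276 RPKM in MDMs. The sums of the monocyte-derived macrophage list overlapped, at 50.5 to 67.4 RPKM in TRMs and 53.1 to 116.6 RPKM in MDMs. Of that list F13a1 alone was higher in every MDM library than in every TRM library. The other genes with a row in both overlapped, so the list as a whole did not set MDMs apart. In MDMs the neutrophil list summed to 10630 to 23280 RPKM, most of it S100a9 (9379 to 21110 RPKM). The macrophage list summed to 2102 to 4595 RPKM there, most of it Lyz2 and Ctss. Each neutrophil gene with a row in both populations was higher in every MDM library than in every TRM library. Csf3r, as an example, was at 208.4 to 323.1 RPKM in MDMs and 1.34 to 4.02 RPKM in TRMs. The MDM libraries thus carried a neutrophil signature beside the macrophage markers. T cell and B cell markers had no row in the TRM and MDM tables.

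**Figure D1:**
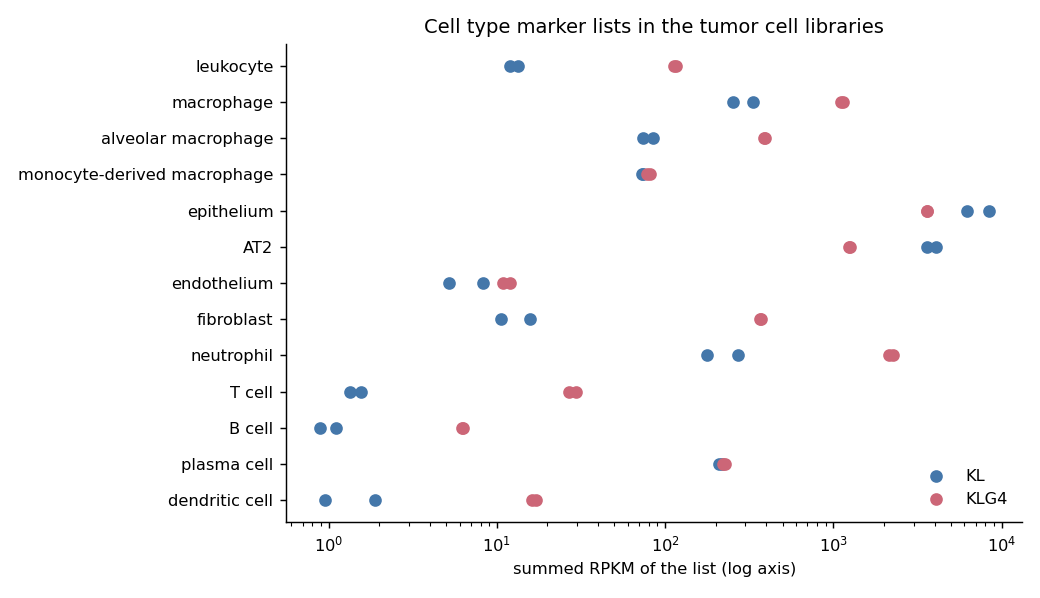
Summed RPKM of each cell type marker list (log axis) in the KL (blue) and KLG4 (red) tumor cell libraries, one point per library. The KLG4 libraries lie to the right for leukocyte, macrophage, fibroblast, neutrophil, T cell, B cell and dendritic cell lists and to the left for the epithelial and AT2 lists. They also lie to the right for the alveolar macrophage list, at 387.9 and 394.4 RPKM against 74.1 and 84.9 RPKM in KL. The endothelial list lies to the right as well, and the monocyte-derived macrophage and plasma cell lists do so narrowly.

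Of the members, 9 of 10 passed the filter of at least 1 RPKM in 2 of the 4 libraries in tumor cells, 9 of 10 in TRMs and all 9 with a row in MDMs, where Timd4 had none. Genes were called at an adjusted p under 0.05 over the whole table with limma on log2(RPKM + 0.1). In tumor cells 5 of 9 tested members were called higher, where 20.6% of all 13770 tested genes were, and 0 were called lower, where 19.6% of all genes were. Of these 5, Mertk and Timd4 passed the filter only through KLG4, as did 1248 genes of the table, 1161 of them called higher, so the count is a description and supports no direction. With a filter on the mean over all 4 libraries, at least 5 RPKM, 3 of 7 members (Axl, Gas6 and Sirpa) were called higher. The 2 KLG4 values exceeded the 2 KL values for 7 of 9 members (32.5% of all genes) and were under them for 1, Mfge8 (42.2% of all genes). In TRMs 1 of 9 members was called higher (1.36% of all genes) and 0 lower (0.437% of all genes), while 6 had both KLG4 libraries above both KL libraries (53.7% of all genes) and 1, Gas6, had them below (8.95% of all genes). The TRM share above is thus near that of all genes. In MDMs 0 of 9 members were called higher or lower, as were 0% of all 10475 genes, both by limma and by limma-voom, and 706 genes, 1 of them a member, had an unadjusted p under 0.05 in limma. With 1 library left out, the lone library of its group being assumed to vary like the others, the members called reached 8 in tumor cells without KL replicate 1 (Cd47, Cd24a and Mfge8 were added, and 48.6% of all genes were called), 5 in TRMs without KL replicate 2 (Cd47, Mertk, Axl and Gas6 added, 21.7% of all genes) and 5 in MDMs without KL replicate 1 (Mertk, Axl, Gas6, Cd24a and Stab1, 25.6% of all genes). In MDMs 2 members, Cd47 and Sirpa, had both KLG4 libraries above (25.4% of all genes) and 2, Gas6 and Mfge8, below (19.1% of all genes).

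**Figure D2:**
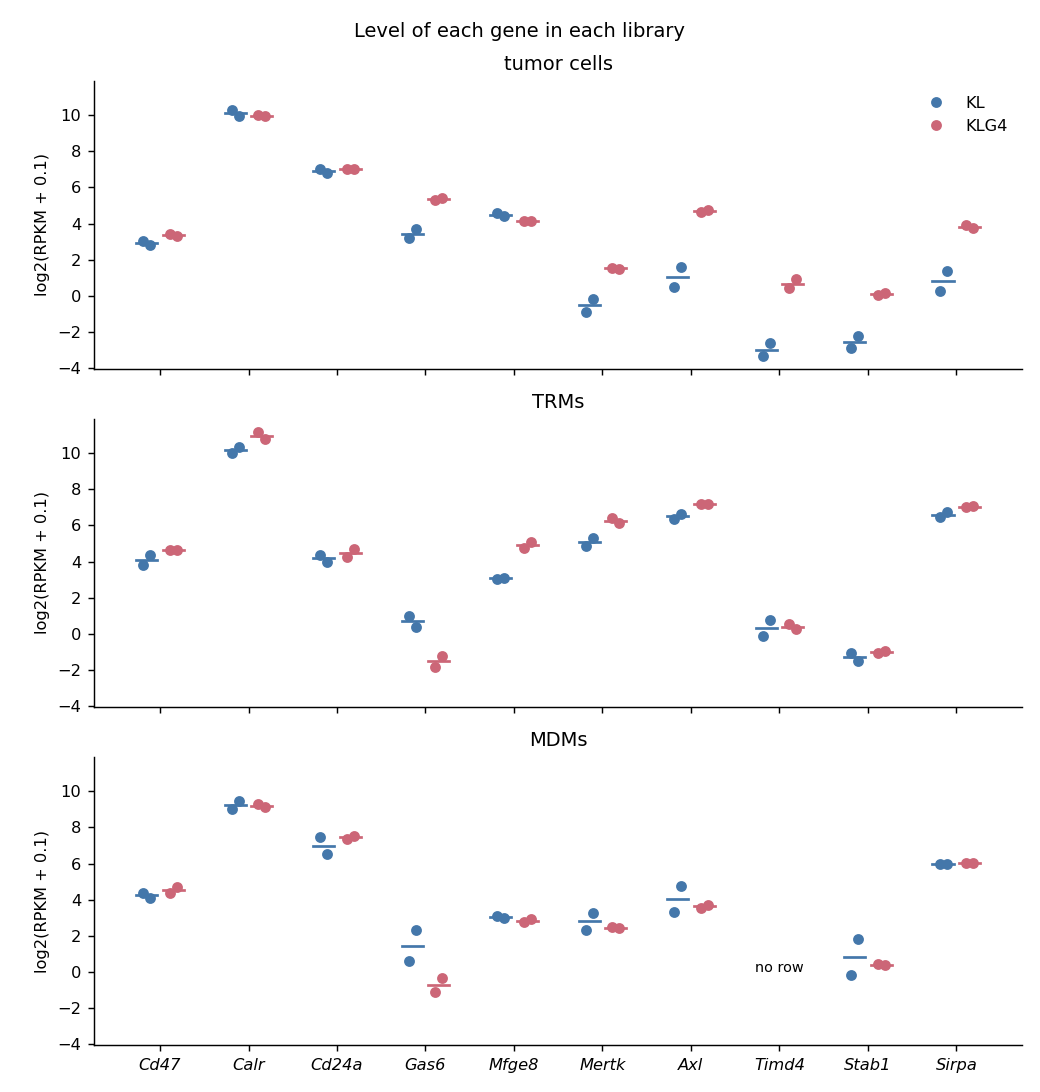
Level of each gene as log2(RPKM + 0.1) in every library, with KL in blue, KLG4 in red and a bar at the mean of the 2 libraries. Axl, Mertk, Timd4, Stab1, Sirpa and Gas6 are higher in KLG4 tumor cells, In TRMs the KLG4 points of Mfge8, Mertk, Calr, Axl, Cd47 and Sirpa lie above the KL points, of which Mfge8 alone passed, and the KLG4 points of Gas6 lie below them in TRMs and MDMs without passing.

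Among the signals on the target cell, Calr was the most abundant member in every population. Calr (chromosome 8, 84841850 to 84846934, minus strand) encodes calreticulin, a chaperone of the endoplasmic reticulum that acts as an "eat-me" signal when exposed. Its level in tumor cells was 1226 and 974 RPKM in KL and 1028 and 987 RPKM in KLG4, and the groups overlapped, although without KL replicate 2 it was called lower (log2 fold change -0.28, adjusted p 0.0049 by limma). In TRMs it was 1033 and 1318 RPKM in KL and 2299 and 1760 RPKM in KLG4, with no overlap, yet the log2 fold change of 0.79 (95% interval 0.26 to 1.31) did not pass (adjusted p 0.093 by limma). Its MDM level was 511.3 and 694.7 RPKM in KL and 622.2 and 563.7 RPKM in KLG4, and the groups overlapped. RNA levels do not show how much calreticulin reached the cell surface.

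Cd47 (chromosome 16, 49855618 to 49915010, plus strand), the ligand of SIRPα, was lowest in tumor cells. It was at 8.001 and 6.82 RPKM in KL and 10.4 and 9.78 RPKM in KLG4 tumor cells. The groups did not overlap, yet the log2 fold change of 0.45 (95% interval 0.06 to 0.83) narrowly failed by limma (adjusted p 0.067) and passed by limma-voom on the recovered reads (adjusted p 0.041). In TRMs Cd47 was at 14.2 and 20.6 RPKM in KL and 24.5 and 24.8 RPKM in KLG4, and its log2 fold change of 0.53, beside 0.381 for the median gene, did not pass (adjusted p 0.197 by limma). MDMs held Cd47 at 20.7 and 17.1 RPKM in KL and 20.8 and 25.6 RPKM in KLG4, and the log2 fold change of 0.29 did not pass. The KLG4 values exceeded the KL values in all 3 populations, with 0 calls by limma on log2(RPKM + 0.1) over all libraries, although tumor cells passed without KL replicate 1 (adjusted p 0.016) and after scaling to reads outside mitochondrial genes (0.047), and TRMs without KL replicate 2 (0.042). In the order of group means, KLG4 TRMs and KLG4 MDMs overlapped at the top, KL MDMs and KL TRMs overlapped below them, and tumor cells stood lowest in both genotypes.

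Cd24a (chromosome 10, 43578284 to 43584265, plus strand), the mouse gene for the "don't-eat-me" protein CD24, was high in tumor cells and MDMs and low in TRMs. Its near-identical copies in the genome make its counts uncertain. It was at 127.2 and 109.8 RPKM in KL and 131.7 and 127.4 RPKM in KLG4 tumor cells, with an interval of the log2 fold change from -0.18 to 0.44. In TRMs it was at 20.55 and 15.6 RPKM in KL and 19.2 and 25.6 RPKM in KLG4, and the groups overlapped. The MDM values were 174.2 and 90.8 RPKM in KL and 165.9 and 186.9 RPKM in KLG4, so that KL replicate 2 alone stood apart. KL replicate 2 also had the lowest neutrophil sum of the MDM libraries, 10630 RPKM.

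Each bridging gene was called in 1 population, Gas6 in tumor cells and Mfge8 in TRMs, both higher in KLG4. Gas6 (chromosome 8, 13465374 to 13494490, minus strand), the ligand that joins phosphatidylserine to Axl and MerTK, was at 8.94 and 12.9 RPKM in KL and 39.9 and 42.9 RPKM in KLG4 tumor cells. The groups were far apart (log2 fold change 1.94, SE 0.20, adjusted p 0.0015 by limma). In TRMs Gas6 was at 1.88 and 1.20 RPKM in KL and 0.176 and 0.334 RPKM in KLG4, from 48 and 28 against 12 and 10 reads, and it passed the filter there through KL alone, as it did in MDMs. The KLG4 TRM libraries were lower without overlap, but the log2 fold change of -2.22 failed by limma (adjusted p 0.094) and was -3.12 by limma-voom on the recovered reads (adjusted p 0.044). In MDMs Gas6 was at 1.40 and 4.84 RPKM in KL and 0.361 and 0.679 RPKM in KLG4, a log2 fold change of -2.18 (unadjusted p 0.028, adjusted p 0.679 in limma). The study called genes of CD8+ T cells at a fold of at least 2 with a p under 0.05, from DESeq2. With unadjusted limma p-values, this threshold of the study was met in MDMs by 3.07% of all genes as lower and 1.03% as higher. Gas6 was the 1 member that met it there. When KL replicate 2 was left out its log2 fold change was -1.32, and when KL replicate 1 was left out it was -3.04 (adjusted p 0.022 by limma).

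Beside these Gas6 values stood markers of fibroblasts. The fibroblast list summed to 10.6 and 15.7 RPKM in KL and 369.2 and 368.7 RPKM in KLG4 tumor cells. There 6 of 6 genes were called higher, although Pdgfra and Lum entered the test through KLG4 alone. Over the 4 of 6 genes with a row the list summed to 1.42 and 3.21 RPKM in KL and 0.726 and 0.985 RPKM in KLG4 TRMs, and to 2.01 and 10.4 RPKM in KL and 1.35 and 1.35 RPKM in KLG4 MDMs. Dcn and Lum had no row there. The part of these cells in the Gas6 differences was not tested, and fewer cells of a type cannot be told apart from less RNA per cell in these bulk libraries. An exon of Gas6 overlaps Tmem255b on the other strand, and counting ignored strand.

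Mfge8 (chromosome 7, 79133768 to 79149060, minus strand), a secreted protein that links phosphatidylserine to integrins, was the 1 member called in TRMs. It was at 8.05 and 8.46 RPKM in KL and 27.0 and 34.3 RPKM in KLG4 TRMs. The KLG4 libraries lay more than 3 times above the KL libraries, with a log2 fold change of 1.87 (SE 0.20, adjusted p 0.035 in limma). The call was lost under quantile scaling (1.51, adjusted p 0.056) and without the trend (adjusted p 0.079). In tumor cells Mfge8 was at 23.5 and 21.3 RPKM in KL and 17.6 and 17.3 RPKM in KLG4, lower without overlap, and the log2 fold change of -0.36 did not pass (adjusted p 0.071 by limma), although it did without either KL replicate (0.047 and 0.013). Mfge8 of MDMs stood at 8.28 and 7.90 RPKM in KL and 6.58 and 7.58 RPKM in KLG4, a log2 fold change of -0.19 that did not pass. Beside the TRM difference, the leukocyte list summed to 184.5 and 219.4 RPKM in KL and 258.9 and 247.8 RPKM in KLG4. AT2 markers were lower there, at 166.3 and 177.5 RPKM in KL against 31.5 and 63.6 RPKM in KLG4 over the 6 genes, of which 2 were called lower, and the part of such cells was not tested.

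The receptor kinase genes Axl and Mertk were most abundant in TRMs. Axl (chromosome 7, 25757273 to 25788705, minus strand) was at 82.3 and 99.1 RPKM in KL and 146.7 and 148.4 RPKM in KLG4 TRMs, a log2 fold change of 0.71 without overlap that did not pass (adjusted p 0.075 in limma). In tumor cells it was at 1.30 and 2.95 RPKM in KL and 25.0 and 26.6 RPKM in KLG4. The log2 fold change there was 3.65 (SE 0.37, adjusted p 0.0014 in limma). In MDMs Axl was at 9.88 and 27.1 RPKM in KL and 11.7 and 12.7 RPKM in KLG4, so that both KLG4 libraries fell between the KL libraries.

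Mertk (chromosome 2, 128698956 to 128802894, plus strand) was at 28.5 and 38.9 RPKM in KL and 84.3 and 70.0 RPKM in KLG4 TRMs. The groups did not overlap, and the log2 fold change of 1.20 (95% interval 0.67 to 1.73) just missed the threshold (adjusted p 0.054 by limma). It was 0.93 under quantile scaling (adjusted p 0.084) and 0.82 with limma-voom on the recovered reads (adjusted p 0.014). In tumor cells Mertk was at 0.441 and 0.785 RPKM in KL and 2.77 and 2.74 RPKM in KLG4, a log2 fold change of 2.04 (SE 0.30, adjusted p 0.0046 in limma), with entry through KLG4 alone. That log2 fold change was 1.23 with a pseudocount of 1, 2.21 with 0.01 and 1.49 under quantile scaling. Without either KLG4 replicate the adjusted p was 0.053. MDMs gave 4.93 and 9.62 RPKM in KL and 5.43 and 5.32 RPKM in KLG4, with overlapping groups. KL replicate 2 was the high one for Axl, Mertk, Gas6 and Stab1 in MDMs, and its macrophage list summed to 4595 RPKM against 2102 to 2712 RPKM in the other libraries. Of that list Lyz2 (2596 RPKM), Ctss (1823 RPKM) and Fcgr1 were highest in KL replicate 2, whereas Adgre1, Csf1r and Cd68 were not. The same library had the highest epithelial (260.7 RPKM), AT2 (374.1 RPKM) and endothelial (35.8 RPKM) sums of the MDM libraries. The part of any of these cells was not tested.

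The direct phosphatidylserine receptors Timd4 and Stab1 were low everywhere. Timd4 (chromosome 11, 46810800 to 46844332, plus strand), which encodes Tim-4, was listed at 0 and at 0.061 RPKM (4 reads) in KL and at 1.25 and 1.79 RPKM (48 and 62 reads) in KLG4 tumor cells. Since it passed the filter only through KLG4, its log2 fold change of 3.66 (adjusted p 0.0014 in limma) is a description, and it was 1.28 with a pseudocount of 1 and 5.82 with 0.01. In TRMs Timd4 was at 0.828 and 1.61 RPKM in KL and 1.36 and 1.10 RPKM in KLG4, with overlapping groups. Stab1 (chromosome 14, 31139013 to 31168641, minus strand), which encodes stabilin-1 and shares exon sequence with Nt5dc2 on the other strand, passed the filter in MDMs only. It was at 0.035 and 0.112 RPKM in KL and 0.942 and 1.02 RPKM in KLG4 tumor cells, and without the filter its log2 fold change was 2.68 (adjusted p 0.0015 by limma). In TRMs it was at 0.379 and 0.255 RPKM in KL and 0.374 and 0.413 RPKM in KLG4. Stab1 of MDMs stood at 0.770 and 3.44 RPKM in KL and 1.25 and 1.21 RPKM in KLG4, and both KLG4 libraries fell between the KL libraries.

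Sirpa (chromosome 2, 129592835 to 129632228, plus strand) encodes the inhibitory receptor for CD47 and has close paralogs, which makes its counts uncertain. It was at 87.5 and 108.0 RPKM in KL and 130.2 and 134.1 RPKM in KLG4 TRMs, a log2 fold change of 0.44 that was close to the median of all genes and did not pass. MDMs held Sirpa at 61.7 and 61.6 RPKM in KL and 65.3 and 64.4 RPKM in KLG4, a narrow gap with an interval of the log2 fold change from -0.39 to 0.54. In tumor cells it was at 1.10 and 2.46 RPKM in KL and 14.8 and 13.5 RPKM in KLG4, with a log2 fold change of 3.02 (SE 0.37, adjusted p 0.0026 in limma). The order of its group means ran from KLG4 TRMs through KL TRMs, both MDM groups and KLG4 tumor cells to KL tumor cells, and no neighbours in that order overlapped.

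**Figure D3:**
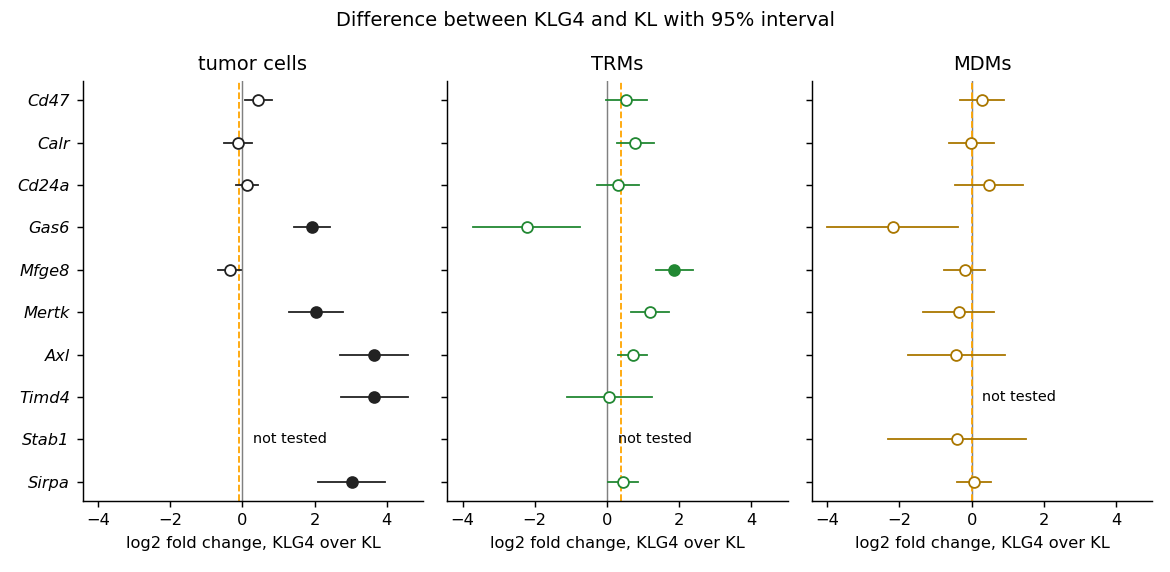
Log2 fold change of KLG4 over KL for each gene (point) with its 95% interval (line) from limma in each population. Filled points have an adjusted p under 0.05, and the dashed line marks the median of all tested genes, -0.094 in tumor cells, 0.381 in TRMs and 0.022 in MDMs.

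Whether the difference between genotypes itself differed between populations was tested in a limma fit over the 12 libraries, for 8 members that passed the filter in all 3 tables. The tables had been made separately, and only differences within a table were compared. Gas6 had entered the TRM and MDM tables through KL alone and Mertk the tumor cell table through KLG4 alone, so their differences are descriptions, and the counts that hold them support nothing. Between TRMs and tumor cells 4 of 8 members differed, where 24.1% of 8976 genes did. The differences, as TRMs minus tumor cells on the log2 scale, were -2.58 for Sirpa, -2.94 for Axl, -4.15 for Gas6 and, in the other direction, 2.23 for Mfge8 (adjusted p 0.0029, 0.0099, 0.0046 and 5.0e-04). Between MDMs and tumor cells 4 of 8 members differed (13% of genes), with -2.95 for Sirpa, -2.40 for Mertk, -4.07 for Axl and -4.12 for Gas6. Between TRMs and MDMs Mfge8 alone of 8 members differed in the fit over all 12 libraries, by 2.06 (adjusted p 0.034), where 0.379% of genes did. This call was lost (adjusted p 0.052 to 0.133 by limma) without any 1 of the tumor cell libraries, TRM KLG4 replicate 2 or either MDM KLG4 replicate. The difference for Mertk between TRMs and MDMs, 1.56 (95% interval 0.51 to 2.61), did not pass (adjusted p 0.159). It was 2.03 without MDM KL replicate 1 and 1.08 without MDM KL replicate 2. For Axl it was 1.13 over all libraries, 1.85 without MDM KL replicate 1 and 0.41 without MDM KL replicate 2. Both differences thus depend on the KL replicates of MDMs. For Cd47 the intervals of the 3 differences all included 0, from -0.60 to 0.76 between TRMs and tumor cells, from -0.84 to 0.53 between MDMs and tumor cells and from -0.44 to 0.92 between TRMs and MDMs.

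The promoters of the called members were read from RefSeq for GRCm38.p6, as the 250 bases before the annotated start, 5′ to 3′ on the strand of the gene. They are shown for the bridging and receptor genes that were higher together in KLG4 tumor cells, and for Mfge8, called in TRMs. Of the 10 members 8 had an entry, and Sirpa and Cd24a had none. Capitals mark the GC box GGGCGG on either strand.
Gas6 (chr8:13494536-13494785, minus strand): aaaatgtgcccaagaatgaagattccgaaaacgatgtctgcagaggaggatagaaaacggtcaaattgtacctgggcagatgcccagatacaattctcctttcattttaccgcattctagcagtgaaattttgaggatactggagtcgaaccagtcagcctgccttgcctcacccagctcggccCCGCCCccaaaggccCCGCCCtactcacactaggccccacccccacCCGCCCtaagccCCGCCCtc
Mertk (chr2:128698665-128698914, plus strand): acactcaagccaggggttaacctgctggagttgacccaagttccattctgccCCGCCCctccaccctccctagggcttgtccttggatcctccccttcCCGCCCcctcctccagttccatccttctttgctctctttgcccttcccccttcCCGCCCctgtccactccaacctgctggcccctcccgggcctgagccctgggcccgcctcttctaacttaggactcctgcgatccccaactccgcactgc
Axl (chr7:25788734-25788983, minus strand): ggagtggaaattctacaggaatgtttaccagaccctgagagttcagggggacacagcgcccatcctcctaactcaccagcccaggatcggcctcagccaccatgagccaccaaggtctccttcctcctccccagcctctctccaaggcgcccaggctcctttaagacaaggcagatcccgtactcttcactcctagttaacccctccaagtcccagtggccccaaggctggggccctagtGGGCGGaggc
Timd4 (chr11:46810549-46810798, plus strand): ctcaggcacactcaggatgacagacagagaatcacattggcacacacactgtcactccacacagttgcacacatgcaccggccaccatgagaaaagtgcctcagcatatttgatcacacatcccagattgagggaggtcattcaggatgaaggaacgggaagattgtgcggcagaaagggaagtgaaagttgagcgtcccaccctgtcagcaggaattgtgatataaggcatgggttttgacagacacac
Mfge8 (chr7:79149061-79149310, minus strand): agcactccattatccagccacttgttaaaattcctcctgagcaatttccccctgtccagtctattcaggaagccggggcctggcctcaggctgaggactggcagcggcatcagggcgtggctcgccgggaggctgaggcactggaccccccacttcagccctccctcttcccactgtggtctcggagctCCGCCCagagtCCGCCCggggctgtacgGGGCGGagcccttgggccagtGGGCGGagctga
The windows of Gas6 and Mfge8 held 4 GC boxes each, that of Mertk held 3, that of Axl held 1, and that of Timd4 held 0. A GC box was present in 32.9% of the 27025 promoters of the same length. The GC content was 63.6% for Mertk, 60.0% for Axl, 54.8% for Gas6, 65.2% for Mfge8 and 50.0% for Timd4, against a median of 52.0% over all promoters. The Calr window held the endoplasmic reticulum stress element, CCAAT and CCACG with 9 bases between them, on the reverse strand, 162 bases before the start, a match found in 0.122% of promoters. The letters GAGGAAGT (a PU.1 site), TGAGTCA (AP-1) and a pair of AGGTCA copies with 4 bases between them (an LXR DR4 element) were in no window of the 8 members on either strand, against 2.44%, 4.43% and 0.0111% of all promoters.

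The other genes of the clearance pathway were described from 9 lists. Their counts in tumor cells are read against the 20.6% of all genes called higher and 19.6% called lower. In tumor cells the find-me list, attractants of phagocytes and their receptors, had 6 of 7 tested genes called higher and a median log2 fold change of 2.70, but 4 of the 6 (Cx3cr1, P2ry2, P2ry6 and Gpr132) passed the filter through KLG4 alone. The same held for 4 of the 9 other receptors called higher, 4 of 7 engulfment genes, 3 of 9 genes of the pro-phagocytosis list, 2 of 6 bridging genes and 1 of 6 inhibitory genes, so these counts and medians are descriptions. Gpr132, a lysolipid receptor, rose by 4.26, P2ry6, a nucleotide receptor, by 3.15 and S1pr1 by 3.04. The list of inhibitory signals and their effectors had 6 of 8 called higher (median 2.47), led by the inhibitory receptor genes Lilrb4a (29.7 and 64.9 against 677.0 and 702.6 RPKM), Siglece and Pirb. Of the other apoptotic cell receptors 9 of 15 were called higher and 4 lower (median 2.19). Itgam, a subunit of complement receptor 3, rose by 4.10, Cd300lb by 4.02 and Havcr2, which encodes Tim-3, by 3.98, whereas Ager, a marker of alveolar type I cells as well, fell from 426.2 and 447.7 to 54.9 and 56.7 RPKM, and Cd36 and Itgb3 fell by 1.19 each. Several of these genes are expressed mainly by leukocytes, whose marker sums were higher in the same libraries, and their part was not tested.

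Among the bridging proteins and opsonins 6 of 9 were called higher and 2 lower in tumor cells (median 0.99). C1qb and C1qa, subunits of complement C1q that macrophages make, rose by 4.85 and 4.04, and the pentraxin gene Ptx3 rose by 4.77. Anxa1 fell from 1573 and 1077 to 753.5 and 741.2 RPKM and Anxa5, which binds phosphatidylserine, from 307.5 and 294.5 to 198.2 and 215.2 RPKM. In the engulfment list 7 of 15 were called higher and 2 lower (median 0.10), with the hematopoietic genes Dock2 (4.41) and Vav1 (3.62) and the lipid exporter gene Abca1 (2.92) on one side and Crk (-0.58) and Ptk2 (-0.48) on the other. Among genes that control phosphatidylserine exposure 1 of 7 was called higher (Atp11b, 0.57) and 3 lower (Plscr1, Tmem30a and Plscr3, -0.88 to -0.63), and a median of -0.34. The flippase chaperone Tmem30a was at 36.0 and 43.3 RPKM in KL and 22.3 and 22.7 RPKM in KLG4. Of 4 receptor shedding proteases 2 were called lower, Adam10 (-0.64) and Adam9 (-0.50), and 0 higher, with a median of -0.15. The LC3-associated phagocytosis list had 3 of 14 called higher, the oxidase genes Ncf1 and Cybb and the sterol sensor gene Nr1h3, and 1 lower, Dnase2a (-1.20), with a median of 0.13. The pro-phagocytosis list that the study took from earlier work had 9 of 40 called higher and 6 lower (median -0.03), with Dock2, Nckap1l and Pik3r5 higher and Tm2d3, Lamtor4 and Tm2d1 lower.

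**Figure D4:**
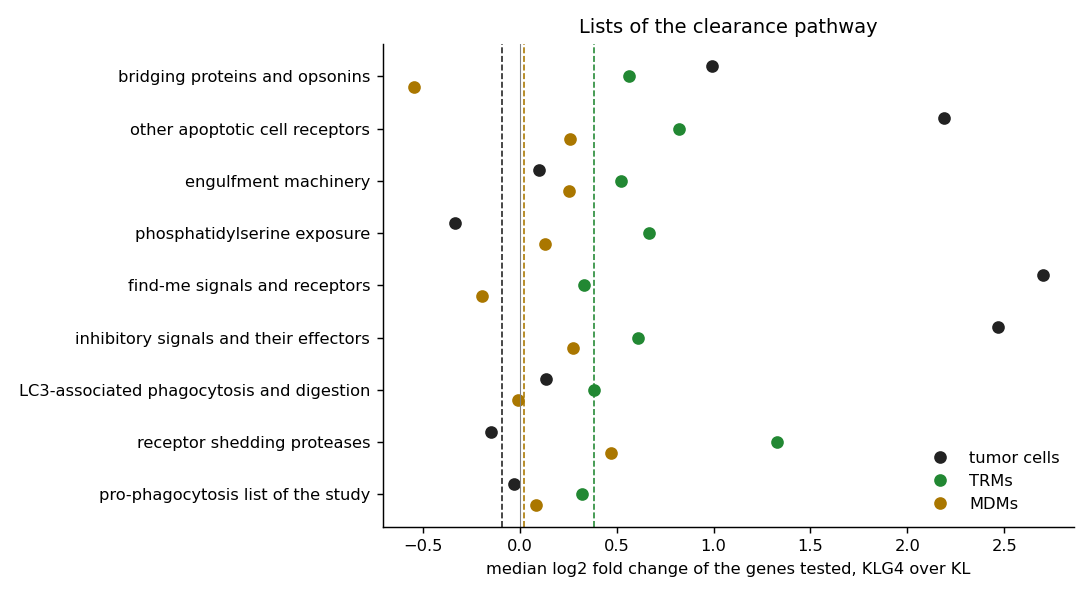
Median log2 fold change of KLG4 over KL (horizontal axis) over the tested genes of each clearance list in tumor cells (black), TRMs (green) and MDMs (brown), with dashed lines at the median of all genes in the same population. In tumor cells the find-me, inhibitory and other receptor lists lie above 2, and the list of phosphatidylserine exposure lies at -0.34.

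In TRMs the lists held 7 called genes, each of them higher, where 1.36% of all genes were called higher and 0.437% lower, that is 150 and 48 genes. Lrp1, a receptor for calreticulin-bearing cells, was at 8.11 and 11.4 RPKM in KL and 36.9 and 36.1 RPKM in KLG4 (log2 fold change 1.91, adjusted p 0.035 in limma), and the scavenger receptor gene Marco was at 156.5 and 135.1 against 396.2 and 640.9 RPKM (1.79, adjusted p 0.044). They were the 2 called of 14 other receptors tested (median 0.82). Abca1 was at 0.724 and 0.897 against 4.58 and 5.16 RPKM (2.45, adjusted p 0.043), the 1 called of 13 engulfment genes (median 0.53), and it entered through KLG4 alone. Cd274, which encodes PD-L1, was at 61.0 and 70.5 against 181.8 and 143.5 RPKM, the 1 called of 9 inhibitory genes (median 0.61). Myo9b, Basp1 and Pik3r5 were the 3 called of 41 genes of the pro-phagocytosis list (median 0.32). In the bridging (median 0.56), phosphatidylserine exposure (0.67), find-me (0.33), LC3-associated (0.38) and shedding protease (1.33) lists 0 genes were called, against 0.381 for the median of all genes.

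In MDMs 0 genes of the lists were called, and the list medians ran from -0.54 for bridging proteins to 0.47 for shedding proteases. At the threshold of the study Thbs1, whose product thrombospondin-1 bridges apoptotic cells to integrins, was higher, at 133.8 and 264.7 RPKM in KL and 452.6 and 376.7 RPKM in KLG4. Scarf1, a receptor for C1q, was lower, at 1.19 and 3.81 against 0.372 and 0.346 RPKM, as were Ager (13.6 and 25.4 against 5.09 and 7.93 RPKM) and S1pr1 (1.72 and 4.05 against 0.819 and 0.946 RPKM). Scarf1 and S1pr1 entered the test through KL alone. Of the AT2 and epithelial markers 0 of 6 and 0 of 6 were called in MDMs, and 5 of each had both KLG4 values under both KL values. The AT2 sums were 154.2 and 374.1 RPKM in KL and 36.1 and 69.0 RPKM in KLG4.

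The genes whose level followed each member most closely over the 12 libraries were taken as a description. Pearson's r of log2(RPKM + 0.1) was highest with Parvg and Fermt3 for Sirpa (0.998 and 0.997), with Ctsk and Naaa for Mertk (0.998 and 0.997), with Slco2b1 and Colec12 for Axl (0.993 and 0.990) and with Timp3 and Mgp for Gas6 (0.992 and 0.991). It was highest with Gpcpd1 and Smap2 for Cd47, with Lrrc59 and Snd1 for Calr, with Schip1 and Zfp36l1 for Cd24a, with Rnaseh1 and Dnajc1 for Mfge8 and with Mir3061 and Slc7a11 for Stab1, at 0.933 to 0.990. The 12 libraries share 3 populations, which set most of the spread, and 7094 genes were searched. Timd4, with no row in MDMs, was left out.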

How the data were processed

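Libraries were made from poly(A) RNA without strand information. Per the submitters' processing notes, the authors trimmed paired-end reads with Trim Galore 0.6.4, aligned them with HISAT2 2.0.5 (GRCm38, Ensembl genes) and counted them with featureCounts 2.0.0. The authors deposited RPKM values in a separate table for each population, with no further factor between libraries. Their fold changes and p-values in the same tables were not used. RPKM multiplied by gene length came in equal steps within a library, which gave the reads and the counted depth: at least 99.99% of values below 2000 reads were whole within 0.05.

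Each table was fitted with limma 3.58.1 in R 4.3.3 on log2(RPKM + 0.1) with a trend, for genes of at least 1 RPKM in 2 of 4 libraries, with Benjamini-Hochberg adjustment over the table. Such fold changes understate the change of low genes. The fit over 12 libraries was chosen after the data were seen. Named list genes were the up to 3 largest increases and decreases per list that passed with both KLG4 libraries on one side of both KL libraries, and in MDMs those past the study's threshold. The members and lists were chosen with earlier results of these data known. The 5 other samples were not analysed here. The genotype is not reported here in full.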

Additional observations from a re-analysis of the deposited data

Results flagged for a closer look

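The difference between KLG4 and KL differed between populations, by the joint limma test, in 9 of 24 comparisons of members, all in log2 units. These were 4 of 8 between TRMs and tumor cells (24.1% of 8976 genes), 4 of 8 between MDMs and tumor cells (13% of genes) and 1 of 8 between TRMs and MDMs (0.379% of genes). Gas6 was called higher in KLG4 tumor cells and had lower values, not called, in KLG4 TRMs and MDMs, where it was under 1 RPKM in both KLG4 libraries and passed the filter through KL alone, a difference of -4.15 between TRMs and tumor cells and of -4.12 between MDMs and tumor cells. For Axl the same differences were -2.94 and -4.07, and for Sirpa -2.58 and -2.95. Mertk, which passed the tumor cell filter through KLG4 alone, differed by -2.40 between MDMs and tumor cells. The differences of Gas6 and Mertk are therefore descriptions, although they are among the 9. Mfge8 differed by 2.23 between TRMs and tumor cells and by 2.06 between TRMs and MDMs, a call that 7 of the 12 fits without 1 library did not keep (adjusted p up to 0.133). In the fit over all 12 libraries Gas6, Axl, Sirpa and Mertk passed against tumor cells alone. In tumor cells the leukocyte, macrophage and fibroblast marker sums were higher in KLG4, and the part of those cells was not tested. Between TRMs and MDMs the differences of Axl and Mertk were 1.13 and 1.56, and grew to 1.85 and 2.03 without MDM KL replicate 1.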

How the results depend on the processing

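In tumor cells the counts of genes (5543) and members (5) called fell to 3284 of 7029 and 3 of 7 with a filter at a mean of 5 RPKM, which removes Mertk and Timd4. Leaving out a library gave 1927 to 7372 genes and 4 to 8 members, the lowest without a KLG4 replicate and the highest of members without KL replicate 1. Calls were 2843 higher and 2700 lower, against 2585 and 4130 under quantile scaling, where the median of all genes was -0.25. Calr ranged from -0.283 (KL replicate 2 left out, adjusted p 0.0049 by limma) to 0.049 (KL replicate 1 left out) around -0.117.

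In TRMs the 198 calls (150 higher, 48 lower) became 490 with a pseudocount of 1, 122 with 0.01, 120 without a filter, 557 at a mean of 5 RPKM, 60 (23 higher, 37 lower) under quantile scaling, 66 after scaling to reads outside mitochondrial genes, 12 without the trend and 752 with limma-voom, and 113 to 2382 without a library, the highest without KL replicate 2. The 1 member called became 2 with a pseudocount of 1 and at a mean of 5 RPKM, 0 under quantile scaling and without the trend (Mfge8 at an adjusted p of 0.056 and 0.079 in limma), 3 with limma-voom, and 1 to 5 without a library, the highest without KL replicate 2. Cd24a turned to -0.041 under quantile scaling and -0.122 with limma-voom, and Timd4 to -0.477, -0.064 outside mitochondrial genes, -0.287 with limma-voom, -0.374 without KL replicate 1 and -0.076 without KLG4 replicate 1, up to 0.508 without KL replicate 2.

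In MDMs leaving out a library gave 0 to 2682 genes and 0 to 5 members, the highest without KL replicate 1. Calr turned to 0.232 under quantile scaling, 0.212 without KL replicate 2 and 0.062 without KLG4 replicate 2, and Mertk, Axl and Stab1 to 0.121, 0.302 and 0.608 without KL replicate 2. Without KL replicate 1 these 4 were -0.23, -0.829, -1.15 and -1.42. The other alternatives in MDMs gave 0 calls. The 9 differences between populations kept direction, and that of Mfge8 between TRMs and MDMs lost significance (adjusted p 0.052 to 0.133 by limma) without any 1 of the tumor cell libraries, TRM KLG4 replicate 2 or either MDM KLG4 replicate. Without a tumor cell library the Mfge8 difference stayed at 2.06, because the joint fit pools the variance of all 12 libraries. Leaving out 1 library gave differences between MDMs and tumor cells of -4.79 to -3.35 for Axl and -4.98 to -3.26 for Gas6. The share of genes called between TRMs and tumor cells was 24.1%, and 15.8% under quantile scaling. Such shares also moved with the library left out. The cause of the other changes was not tested.

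Replicate numbers did not pair the libraries (correlations of deviations 0.019, -0.060 and 0.054 in tumor cells, TRMs and MDMs). With the number as a replicate block the counts were 5388, 470 and 0 genes and 5, 2 and 0 members. Group sizes of 2 libraries limit the precision, and low members such as Timd4 and Gas6 in TRMs rest on under 100 reads per library.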
